A study of Mus musculus with 11 samples.

Results

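Of the 638 genes in the expression signature that the authors deposited for this mouse leukaemia study, 6 encode adhesion G protein-coupled receptors: Adgre1, Adgre5, Adgrl1, Adgrl4, Adgrg1 and Adgra3. They were found by Entrez identifier, because the authors' deposited table lists them under the older symbols Emr1, Cd97, Lphn1, Eltd1, Gpr56 and Gpr125. The 6 were chosen by measured values. The rows of the authors' deposited table all have an absolute log2 fold change of at least 0.586, just above the log2 of 1.5 (0.585), and a p-value of at most 0.001599902. The differences that chose them are therefore described below and not tested. Of a list of 30 mouse genes of the family, 24 have no row in the signature and were not analysed here, since the array values carry no gene names for them. The values of genes just outside the limits cannot be given for the same reason.

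Adhesion receptors join a long extracellular part, which binds other cells or the matrix, to a membrane-spanning part that couples to G proteins. Most cut themselves at a site next to the membrane and keep both fragments together, and the short stretch exposed when the outer fragment is pulled away can act as a tethered agonist. In blood cells the family is known mainly through Adgre1, the F4/80 antigen of mouse macrophages, through Adgre5, the leukocyte antigen CD97, and through Adgrg1, or GPR56, which is carried by blood stem cells and, in humans, by cytotoxic lymphocytes.

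Expression was measured on Affymetrix mouse arrays in granulocyte-macrophage progenitors (GMPs), the marrow precursors of neutrophils and monocytes, sorted as Lin- Sca-1- c-Kit+ CD34+ cells with high FcR II/III from independent pools of mice. The 11 arrays comprise 4 control arrays, 3 Irf8 KO arrays and 4 arrays of Irf8 KO mice with activated beta-catenin, called Irf8 KO / b-cat(Ex3) here. Irf8 is a transcription factor needed for monocyte and dendritic cell development, and its loss gives a disease resembling chronic myeloid leukaemia. Activation of beta-catenin, the effector of the Wnt pathway, was the step the study tied to blast crisis. Controls were MxCre–Ctnnb1(Ex3)fl/+ by their labels, where the dash leaves unclear whether the recombinase was absent. The series text gives Irf8–/–Ctnnb1(Ex3)fl/+ as the genotype of the Irf8-deficient mice without activation, and Irf8–/–Ctnnb1(Ex3)∆/+ as that of the mice with it, so 1 Ctnnb1 allele was floxed or deleted in every group. Mx-Cre is induced by interferon and acts in many cell types, not in GMPs alone. All mice, controls included, received 400 µg of poly(I:C), an interferon inducer, on days 0, 3 and 5, with marrow harvested 10 to 14 days later. The age of the mice is not given in the sources used here. A further group, with beta-catenin activated but Irf8 intact, is described in the series text and were not analysed here.

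Each row of the authors' deposited table was tied to its probe set by its fold. For all 638 rows, the deposited fold equalled the difference between the Irf8 KO / b-cat(Ex3) and control means of exactly 1 probe set within 1e-08 on the log2 scale, and for 0 rows did it equal a difference between other groups. Positive values are therefore higher in Irf8 KO / b-cat(Ex3) GMPs, control is the reference, and the array values are on a log2 scale. Array medians ran from 3.92 to 4.09, and arrays of the same group correlated at 0.971 to 0.994 over all probe sets. The Irf8 probe set, itself a signature row and so chosen for its difference between Irf8 KO / b-cat(Ex3) and control, read 9.23 to 9.78 in controls, 7.90 to 8.89 in Irf8 KO and 7.51 to 8.63 in Irf8 KO / b-cat(Ex3), so every Irf8-deficient array was below every control. Its Irf8 step was -0.998 ± 0.28 (SE; limma, adjusted p = 0.116), which was not called, so it is a limited check of the labels. Where it lies relative to the deleted part of Irf8 was not tested. None of the 12 GMP markers listed, such as Mpo and Elane, has a signature row, so the identity of the sorted cells was not tested on these values.

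The receptors differed from control in opposite directions. Both E subfamily members that have signature rows, Adgre1 and Adgre5, were higher in Irf8 KO / b-cat(Ex3) GMPs than in controls. The 4 from the L, G and A subfamilies that have rows were lower there: Adgrl1 and Adgrl4, which belong to the latrophilin group, Adgrg1, and Adgra3. In the authors' deposited table the 6 log2 fold changes ran from -1.104 to 1.304, and over the whole signature 394 rows are higher and 244 lower. The arrays of these groups did not overlap for any of the 6, which their choice by this same difference makes likely. Over all 45037 probe sets, most of them not so chosen, the share without overlap was 12.1%. In these bulk samples, fewer cells that carry a transcript and less of it per cell cannot be told apart.

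**Figure D1:**
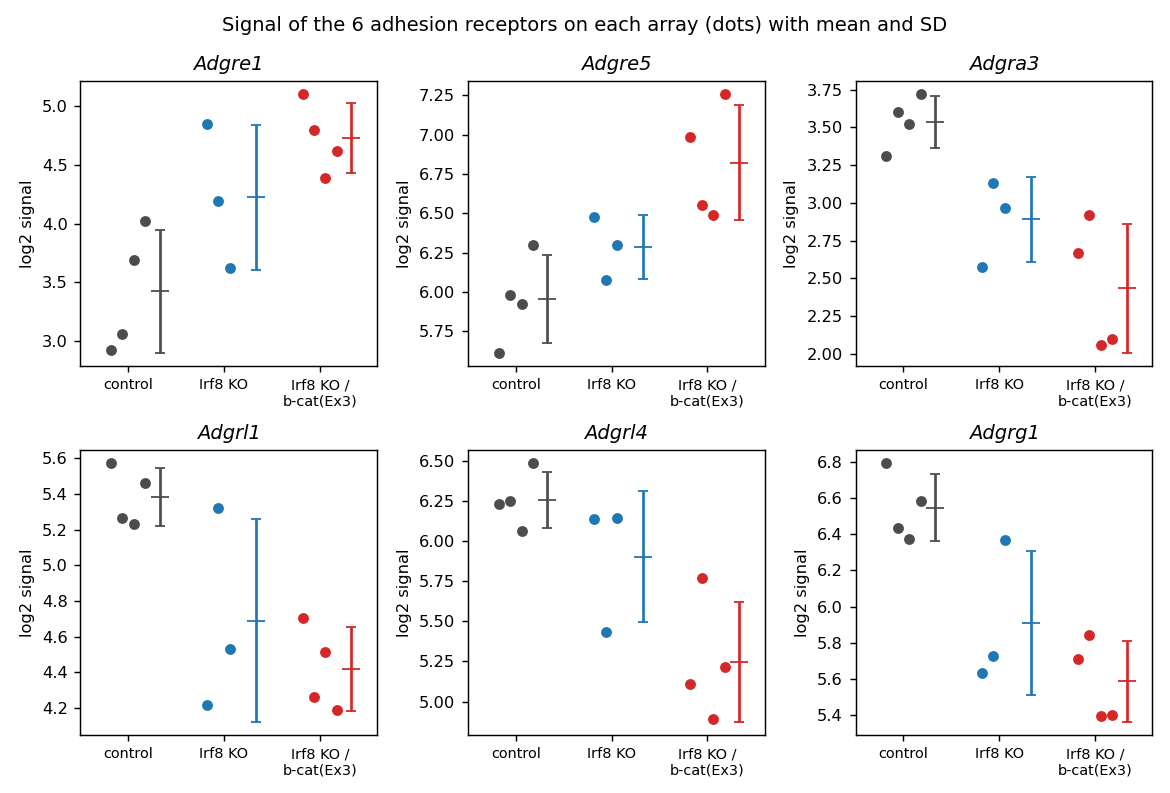
Log2 signal of each receptor on the 4 control, 3 Irf8 KO and 4 Irf8 KO / b-cat(Ex3) arrays; dots are arrays, and the bar beside them is the mean with its SD. Axes differ between panels and do not start at 0. Adgre1 and Adgre5 are higher in Irf8 KO / b-cat(Ex3), and the other 4 are lower, with the Irf8 KO mean between the other two in every panel.

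Adgre1 carries epidermal growth factor-like repeats and is used as a marker of mature tissue macrophages. Its control arrays read 2.92, 3.06, 3.69 and 4.02 on the log2 scale, its Irf8 KO arrays 4.85, 4.19 and 3.63, and its Irf8 KO / b-cat(Ex3) arrays 5.10, 4.80, 4.39 and 4.62. The controls spread over more than 1 log2 unit, the lowest Irf8 KO array lay within their range, and all 4 Irf8 KO / b-cat(Ex3) arrays lay above them. Group means were 3.42 ± 0.52 (SD, n = 4), 4.22 ± 0.61 (SD, n = 3) and 4.73 ± 0.30 (SD, n = 4). The control mean lay below the median of every array (3.92 to 4.09). Over all arrays 51.4% of probe sets were dimmer on average, and no detection call was available. In the authors' deposited table the receptor stands 86th of the 394 higher rows, at 2.47-fold and p = 0.000555834.

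Adgre5 is present on most leukocytes, and its human counterpart binds the complement regulator CD55. It read 5.62, 5.98, 5.92 and 6.30 in controls, 6.48, 6.08 and 6.30 in Irf8 KO, and 6.98, 6.56, 6.49 and 7.26 in Irf8 KO / b-cat(Ex3). Irf8 KO overlapped the controls, whereas Irf8 KO / b-cat(Ex3) stood above both other groups, narrowly so above Irf8 KO. Means were 5.95 ± 0.28 (SD, n = 4), 6.29 ± 0.20 (SD, n = 3) and 6.82 ± 0.36 (SD, n = 4). The deposited fold was 1.82 with p = 0.001173829 in the authors' deposited table, the highest p of the 6, at place 216 of 394.

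Adgrg1 binds collagen III in the developing brain. It read 6.79, 6.43, 6.38 and 6.58 in controls, 5.64, 5.73 and 6.37 in Irf8 KO, and 5.71, 5.84, 5.40 and 5.40 in Irf8 KO / b-cat(Ex3). The third Irf8 KO array lay just below the lowest control, and the other two lay well below it, within the range of the Irf8 KO / b-cat(Ex3) arrays. Means were 6.55 ± 0.19 (SD, n = 4), 5.91 ± 0.40 (SD, n = 3) and 5.59 ± 0.22 (SD, n = 4). It stands 119th of the 244 lower rows of the authors' deposited table, with log2 fold change -0.957 and p = 0.000458685.

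Adgrl1, latrophilin 1, is a neuronal receptor for the spider toxin alpha-latrotoxin and for teneurins. It read 5.57, 5.26, 5.23 and 5.46 in controls, 4.22, 5.32 and 4.53 in Irf8 KO, and 4.71, 4.26, 4.52 and 4.19 in Irf8 KO / b-cat(Ex3). The second Irf8 KO array lay inside the control range and the other two lay inside that of Irf8 KO / b-cat(Ex3). Means were 5.38 ± 0.16 (SD, n = 4), 4.69 ± 0.57 (SD, n = 3) and 4.42 ± 0.24 (SD, n = 4). The authors' deposited table gives log2 fold change -0.964 with p = 0.000338971.

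Adgrl4, also called ELTD1, is best known from the endothelium of growing vessels. It read 6.23, 6.25, 6.06 and 6.48 in controls, 6.13, 5.43 and 6.14 in Irf8 KO, and 5.11, 5.77, 4.89 and 5.21 in Irf8 KO / b-cat(Ex3). Irf8 KO overlapped both other groups, and the second Irf8 KO / b-cat(Ex3) array was the highest of its group. Means were 6.26 ± 0.17 (SD, n = 4), 5.90 ± 0.41 (SD, n = 3) and 5.25 ± 0.37 (SD, n = 4). Its p in the authors' deposited table, 8.16e-05, is the lowest of the 6, with log2 fold change -1.011. None of the 12 endothelial genes listed, such as Cdh5 and Pecam1, has a signature row, and their levels were not analysed here.

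Adgra3, or GPR125, marks spermatogonial progenitors in the mouse testis and modulates planar cell polarity signalling in zebrafish. It read 3.31, 3.60, 3.52 and 3.72 in controls, 2.58, 3.13 and 2.96 in Irf8 KO, and 2.67, 2.92, 2.06 and 2.10 in Irf8 KO / b-cat(Ex3). Both Irf8-deficient groups lay below every control and overlapped each other. Means were 3.54 ± 0.17 (SD, n = 4), 2.89 ± 0.28 (SD, n = 3) and 2.43 ± 0.43 (SD, n = 4). Its log2 fold change of -1.104 with p = 0.000542439 is the most negative of the 6 in the authors' deposited table. Only 29.9% of probe sets were dimmer on average, and no detection call was available.

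**Figure D2:**
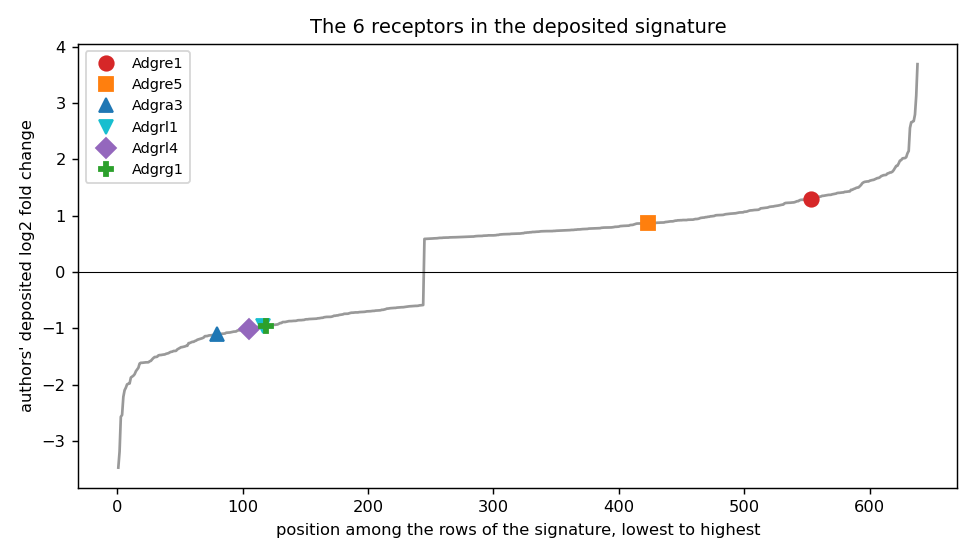
The 638 rows of the authors' deposited table ordered by log2 fold change (x axis, position; y axis, log2 fold change), with the 6 receptors marked. Adgre1, at 1.304, stands 86th and Adgre5, at 0.868, 216th of the 394 higher rows, and the 4 lower receptors lie between -1.104 and -0.957.

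The deposited difference is the sum of an Irf8 step, Irf8 KO minus control, and a beta-catenin step, Irf8 KO / b-cat(Ex3) minus Irf8 KO. Both steps share arrays with the difference that chose the genes, so their tests lean towards the same sign and are not independent of the choice. For each of the 6 receptors both steps had the sign of the sum, which is common in the signature. The Irf8 step had it in 634 of the 638 rows and the beta-catenin step in 612. The Irf8 step made up 71.7% of the sum for Adgrl1, 66.4% for Adgrg1, 61.2% for Adgre1, 58.7% for Adgra3, 38.2% for Adgre5 and 35.0% for Adgrl4. These shares hang on single Irf8 KO arrays: with 1 array left out they ran from 47.3% to 104% for Adgrl1, 52.1% to 90.3% for Adgrg1, 37.1% to 84.1% for Adgre1, 44.6% to 69.5% for Adgra3, 27.0% to 50.1% for Adgre5 and 11.7% to 46.8% for Adgrl4, each end without 1 Irf8 KO array. The median difference over all probe sets was 0.010 at the Irf8 step and 0.002 at the beta-catenin step. Over the 638 signature rows the median share was 64.5%, with quartiles of 48.3% and 78.3%.

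At the Irf8 step, 0 of the 6 receptors passed limma's test at a Benjamini-Hochberg adjusted p under 0.05 over all probe sets. The test was passed by 1.75% of all probe sets (789: 365 higher, 424 lower) and by 118 of the 638 signature rows, which were chosen like the receptors. An unadjusted p under 0.05 was found for 4 of the 6 and for 5821 of all 45037 probe sets. Adgrg1 came nearest, at -0.64 ± 0.19 (SE) on the log2 scale (limma, adjusted p = 0.131). Adgrl1 differed by -0.69 ± 0.22 (adjusted p = 0.184 in limma), Adgra3 by -0.65 ± 0.21 (adjusted p = 0.191) and Adgre1 by 0.80 ± 0.31 (adjusted p = 0.283). The Irf8 steps of Adgre5 and Adgrl4, 0.33 ± 0.20 and -0.35 ± 0.22, had adjusted p of 0.555 and 0.557 in limma. Control and Irf8 KO arrays did not overlap for Adgra3 and Adgrg1, and did not for 13.9% of all probe sets. For Adgrl1 and Adgrg1 the lack of a call hung on single Irf8 KO arrays. Without the second, Adgrl1 was at -1.01 (limma, adjusted p = 0.0230), and without the third, Adgrg1 was at -0.86 (limma, adjusted p = 0.0312).

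At the beta-catenin step, 0 of the 6 passed, against 0.00444% of all probe sets (2 of 45037) and 1 of the 638 signature rows. An unadjusted p under 0.05 was found for 3182 of all probe sets and for 2 of the 6. Those were Adgrl4, at -0.66 ± 0.22 (SE; limma, adjusted p = 0.582), and Adgre5, at 0.54 ± 0.20 (limma, adjusted p = 0.632). Adgre5 alone of the 6 had arrays that did not overlap between Irf8 KO and Irf8 KO / b-cat(Ex3), which held for 6.74% of all probe sets. The differences of the other 4 were 0.51 ± 0.31 for Adgre1, -0.46 ± 0.21 for Adgra3, -0.32 ± 0.19 for Adgrg1 and -0.27 ± 0.22 for Adgrl1, with adjusted p from 0.716 to 0.840 in limma. That of Adgrl1 turned to 0.04 without the second Irf8 KO array.

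**Figure D3:**
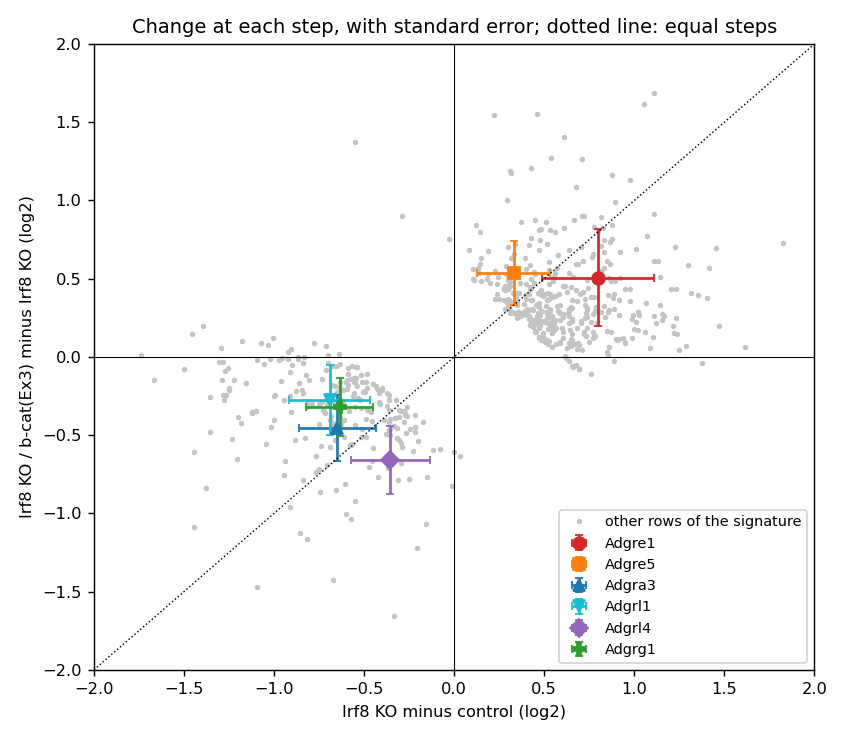
Irf8 step (x axis) against beta-catenin step (y axis) in log2 units for the 6 receptors with their standard errors, over the other signature rows as grey points; 6 rows lie outside the axes. Adgre5 and Adgrl4 lie on the side of the dotted line where the beta-catenin step is the larger, the other 4 on the side where the Irf8 step is.

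Whether the steps of a receptor differed from each other was compared directly, as the beta-catenin step minus the Irf8 step. This comparison was added after the data were seen. With these group sizes its estimate is uncorrelated with the fold that chose the genes, although any use the authors made of the Irf8 KO arrays in choosing them is not known. It was called for 0.0999% of all probe sets (45 of 45037), for 0 of the 638 signature rows and for 0 of the 6 receptors in limma. Of the receptors, 0 had an unadjusted p under 0.05. The values were 0.42 (95% interval -0.45 to 1.28) for Adgrl1, 0.31 (-0.40 to 1.03) for Adgrg1, 0.20 (-0.58 to 0.99) for Adgre5 and 0.19 (-0.63 to 1.02) for Adgra3. Adgre1 and Adgrl4 gave -0.29 (-1.49 to 0.90) and -0.30 (-1.14 to 0.54). Adjusted p ran from 0.901 to 0.962 in limma, and every interval spans 0, so the arrays leave room for a step difference of about 1 log2 unit in at least 1 direction for each receptor. In the comparison that chose them, 6.13% of all probe sets were called (2761 of 45037), and 628 of the 638 signature probe sets.

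Adgre5 and Adgrl1 are neighbours on chromosome 8, with 0 protein-coding genes between them in the RefSeq gene order of GRCm38.p6, and they differed from control in opposite directions. Adgrg1 lies on the same chromosome with 128 protein-coding genes between it and Adgrl1, 1 of which, Man2b1, is in the signature. Irf8, the deleted gene, also lies there, with 228 protein-coding genes between it and Adgrg1, 11 of them in the signature. Whether the strain of origin of the Irf8 allele moves with these genes was not tested. Adgrg1 stands between its relatives Adgrg5 and Adgrg3, and Adgrl4 beside Adgrl2, none of which has a signature row.

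RefSeq promoter windows of GRCm38.p6, the 250 bases before the start of transcription, were at hand for the 4 lower receptors. None was at hand for Adgre1 and Adgre5, so the windows shown were not chosen by direction. Capitals mark the matches to any of 5 motifs searched on both strands. All windows are written 5′ to 3′ on the strand of the gene.
Adgra3, chr5:50058997-50059246, minus strand: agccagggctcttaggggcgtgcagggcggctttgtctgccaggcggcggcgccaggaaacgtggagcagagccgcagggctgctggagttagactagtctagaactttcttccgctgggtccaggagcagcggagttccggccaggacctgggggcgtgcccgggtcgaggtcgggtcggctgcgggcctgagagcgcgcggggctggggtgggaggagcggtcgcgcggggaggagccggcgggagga
Adgrl1, chr8:83899848-83900097, plus strand: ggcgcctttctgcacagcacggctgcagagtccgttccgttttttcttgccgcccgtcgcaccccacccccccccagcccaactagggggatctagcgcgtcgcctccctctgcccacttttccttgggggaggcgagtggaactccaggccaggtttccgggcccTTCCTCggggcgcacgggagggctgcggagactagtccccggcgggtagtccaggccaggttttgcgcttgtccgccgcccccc
Adgrl4, chr3:151437632-151437881, plus strand: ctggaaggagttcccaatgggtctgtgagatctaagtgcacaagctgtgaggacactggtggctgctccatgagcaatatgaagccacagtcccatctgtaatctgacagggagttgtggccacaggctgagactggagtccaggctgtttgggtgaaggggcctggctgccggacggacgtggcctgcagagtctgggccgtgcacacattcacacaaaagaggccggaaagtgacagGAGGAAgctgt
Adgrg1, chr8:94976859-94977108, plus strand: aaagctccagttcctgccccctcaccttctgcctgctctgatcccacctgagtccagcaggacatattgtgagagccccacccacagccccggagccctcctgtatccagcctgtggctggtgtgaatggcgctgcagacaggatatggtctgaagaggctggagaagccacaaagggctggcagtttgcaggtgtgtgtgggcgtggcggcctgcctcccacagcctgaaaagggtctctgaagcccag

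The windows were of unlike composition. Adgra3 and Adgrl1 had 25 and 21 CpG dinucleotides and a GC content of 71.6% and 68.8%, whereas Adgrl4 had 5 and Adgrg1 had 4, at 56.8% and 60.8%. The median over 32851 windows was 6 CpG and 52.4% GC. A second Adgrg1 start, chr8:94984149-94984398, plus strand, also had 4 CpG, at 59.2% GC. The motif GAGGAA, bound by the myeloid factor PU.1, was found in Adgrl1 at positions -84 to -79 relative to the start, on the reverse strand, and in Adgrl4 at positions -11 to -6. It occurs in 23.3% of all windows. The TCF/LEF core CTTTGA (13.8% of windows), the GATA motif AGATAA (9.99%), the ETS-IRF core GGAANNGAA (6.99%) and the interferon response core GAAANNGAA (7.13%) were not found in these 250-base windows. The last 2 motifs can overlap each other and GAGGAA.

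Of 28 ligands and surface partners of the family, 2 have signature rows, and both are known partners of CD97. Itgav, the integrin alpha-V chain, read 5.89 to 6.83 in controls, 6.58 to 7.26 in Irf8 KO and 6.82 to 7.19 in Irf8 KO / b-cat(Ex3), a log2 fold change of 0.726 in the authors' deposited table. Thy1, a surface glycoprotein of T cells and some stem cells, read 3.04 to 4.48, 2.81 to 2.91 and 2.18 to 2.77 in the same groups, and has -1.078 in the authors' deposited table. So of these CD97 partners, Itgav was higher on average beside Adgre5, though its Irf8 KO / b-cat(Ex3) arrays overlapped the controls, and Thy1 was lower. Every Irf8-deficient value of Thy1 lay below the median of every array (3.92 to 4.09), and no detection call was available.

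**Figure D4:**
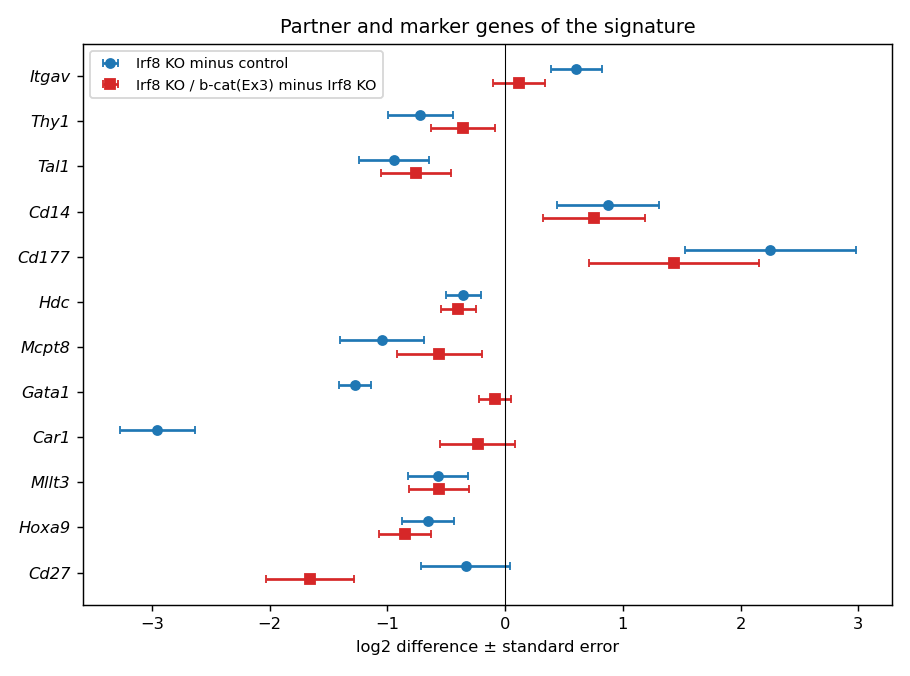
Irf8 step (circles) and beta-catenin step (squares) of the 12 partner, stem cell factor and marker genes that have signature rows, in log2 units with standard errors from limma. Gata1 and Car1 lie far below 0 at the Irf8 step, and Cd27 lies lowest of the 12 at the beta-catenin step.

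Genes listed as markers of other cell types that have signature rows differ from control by the choice of the rows. Whether their signal comes from the GMPs or from other cells was not tested. The other genes of each list could not be read, and the share of all genes on the arrays that have a row cannot be given. Of 14 erythroid and megakaryocyte genes, 2 have rows and both fell at the Irf8 step, which shares its control arrays with the choice of the rows: Gata1, the erythroid transcription factor, by 1.27 (SE 0.14; limma, adjusted p = 0.000432), and Car1, carbonic anhydrase 1, by 2.95 (SE 0.32; limma, adjusted p = 0.000489). Their summed signal was 6.003 to 7.19 on the log2 scale in controls, 4.20 to 4.47 in Irf8 KO and 4.02 to 4.35 in Irf8 KO / b-cat(Ex3). Of 12 stem cell genes, Mllt3, Hoxa9 and Cd27 have rows, with log2 fold changes of -1.136, -1.508 and -1.993 in the authors' deposited table. Their summed signal was 8.25 to 8.42, 7.65 to 8.53 and 6.04 to 7.37. Signals were summed on the linear scale, so Cd27, the brightest, weighs most, at 7.57 to 7.98, 6.93 to 8.17 and 5.07 to 6.92. Mllt3 read 5.52 to 6.16, 4.66 to 5.74 and 4.34 to 5.02, and Hoxa9 5.22 to 5.52, 4.36 to 5.14 and 3.54 to 4.45. Of the 7 factors of the stem cell heptad, a set that acts together at stem cell enhancers, Tal1 has a row, at 5.19 to 5.58, 4.12 to 4.86 and 2.81 to 4.19. Of 14 eosinophil, basophil and mast cell genes, Hdc and Mcpt8 have rows, with summed signals of 8.47 to 9.36, 8.01 to 8.33 and 7.33 to 8.01. These markers were lower in Irf8 KO / b-cat(Ex3), as were Adgrg1, Adgrl1, Adgrl4 and Adgra3, and their part in those differences was not tested.

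Of 15 macrophage and monocyte genes, 1 has a row, Cd14, the lipopolysaccharide co-receptor, at 4.00 to 5.55 in controls, 5.49 to 6.46 in Irf8 KO and 5.81 to 7.65 in Irf8 KO / b-cat(Ex3). Of 14 genes of maturing neutrophils, 1 has a row, Cd177, a neutrophil surface glycoprotein, at 3.73 to 6.82, 6.32 to 7.54 and 7.35 to 9.57. Both were higher in Irf8 KO / b-cat(Ex3), as were Adgre1 and Adgre5, and their part in those differences was not tested. Since the other genes of these lists could not be read, the direction of each list as a whole is not known. None of the 14 lymphoid genes listed has a row.

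Within the signature, each receptor's closest companions over the 11 arrays were named by Pearson's r. These are descriptions: the arrays fall into groups that differ by the choice of the rows, which alone gives high values, and only 531 or 532 named rows above the median signal could be searched. Adgre1 was most like Smarcal1 (0.953), Snrk (0.941) and Mtmr6 (0.941). Adgre5 was most like Sytl1 (0.968), Slc16a3 (0.959), which exports lactate, and Oasl2 (0.957), an interferon-induced gene. Adgra3 was most like Ass1 (0.962), an enzyme of arginine synthesis, Dnmt3b (0.959), a DNA methyltransferase, and Mllt3 (0.945), one of the stem cell genes above. Adgrl1 was most like Samd14 (0.963), Lin54 (0.949) and Fam126a (0.904). Adgrl4 was most like Arid1b (0.960), a chromatin remodeller subunit, and the neighbours Tmem176a (0.954) and Tmem176b (0.952). Adgrg1 was most like Mrpl19 (0.969), Tex9 (0.966) and Muc13 (0.961). No receptor was among another's 3 closest.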

How the data were processed

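RNA of sorted GMPs was extracted with RNeasy kits, and SPIA cDNA was prepared from under 20 ng with the Nugen Pico WTA System, per the labels' protocols. The deposited value table holds 45037 probe sets on 11 arrays in log2 units; how they were normalized is not given in the sources used here. A signature that the authors deposited lists 638 genes with a signed linear fold, its log2 fold change and a p-value, whose test is likewise not stated.

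Signature rows were matched to probe sets by the signed linear fold (tolerance 1e-08), and symbols were updated by Entrez identifier through RefSeq of GRCm38.p6 (621 of 638 matched). Other probe sets have no gene name here, so the planned reading of the rest of the family and of several probe sets per gene was not run. Groups were compared with limma 3.58.1 in R 4.3.3, on all 11 arrays with 1 mean per group and no block, two-sided, with Benjamini-Hochberg adjustment over all probe sets; the fit was tested on simulated data. The arrays are labelled biological replicates and come from pools of mice, so the number of arrays limits the precision. Alternatives were another normalization, a filter on dim probe sets, a trended robust prior, array weights, 2-group fits, a replicate block, a 1.5-fold minimum and leaving out each array. Genes named are the receptors, list genes with signature rows (at most 4 a list), Irf8, and 3 closest companions each. One gene list is not reported here. Members and lists were chosen with earlier results of these data known.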

Additional observations from a re-analysis of the deposited data

How the results depend on the processing

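The difference between Irf8 KO / b-cat(Ex3) and control chose the receptors, so its values under the alternatives are descriptions and not tests. Its direction held for each receptor under every alternative run (107 values). Its adjusted p in limma rose past 0.05 in 8 of them, all with 1 array left out. For Adgre1 it reached 0.0668, 0.0675 and 0.0605 without control replicates 1 and 2 and Irf8 KO / b-cat(Ex3) replicate 1, for Adgre5 0.0625, 0.0535 and 0.0557 without control replicates 1 and 3 and Irf8 KO / b-cat(Ex3) replicate 1, and for Adgrl1 0.0613 and 0.0547 without control replicate 1 and Irf8 KO / b-cat(Ex3) replicate 4. Of the 315 values at the steps and of their difference, 309 kept their direction and 2 gained a call (given with the Irf8 step). Shifting the arrays to one median, chosen after seeing the data, changed no direction or call.

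Probe sets called at the Irf8 step numbered 789, but 1658 with array weights and 347 to 1039 with 1 array left out, lowest without the first Irf8 KO array; the count was also more than 1.5 times lower without the second Irf8 KO array (444) or control replicates 1, 2 or 3 (423, 441 and 477). Between Irf8 KO / b-cat(Ex3) and control the count was 2761, but 4395 with array weights and 1477 to 3673 with 1 array left out; it was 1477, 1609 and 1608 without control replicates 1, 2 and 3. At the beta-catenin step it was 2, but 0 when only those groups were fitted and 1 to 10 with 1 array left out, 10 without the second Irf8 KO / b-cat(Ex3) array and 2 without the fourth, and 1 without any other array. For the step difference it was 45, and 8 to 54 with 1 array left out: 8 without Irf8 KO replicate 1 or 2 and 17 without replicate 3.

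With 1 array left out, the beta-catenin step of Adgrl1 ran from -0.51 to 0.043. Steps of the same direction that moved by over 1.5 times were the beta-catenin steps of Adgrg1 (-0.09 without Irf8 KO replicate 3) and Adgre1 (0.82 and 0.21 without Irf8 KO replicates 1 and 3), and the Irf8 steps of Adgrl4 (-0.12 without Irf8 KO replicate 2), Adgre1 (0.48 without Irf8 KO replicate 1), Adgrl1 (-0.46 without Irf8 KO replicate 1) and Adgre5 (0.22 without control replicate 1). The step difference ran from -0.89 to 0.34 for Adgre1, from -0.0026 to 0.40 for Adgre5, from -0.12 to 0.43 for Adgra3, from -0.052 to 1.05 for Adgrl1, from 0.04 to 0.77 for Adgrg1 and from -0.77 to -0.06 for Adgrl4; each change of sign came from leaving out 1 Irf8 KO array, and the cause was not tested.

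Same-numbered arrays did not deviate together (correlations of -0.228 to 0.171, with 1 of 11 arrays closest to its own number), so no strong pairing by number was seen. With 3 or 4 arrays a group, this check could miss a weaker pairing. With the replicate block the counts were 658 at the Irf8 step, 2443 against control, 2 at the beta-catenin step and 21 for the step difference, and the step difference of Adgre5 turned to -0.055. Adgra3 is too dim for the filter on dim probe sets, so it has no value there.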
